A study of Mus musculus with 15 samples.

Results

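Genes that copy DNA and genes that divide the cell were followed in pressure-overloaded mouse hearts given encenicline, donepezil or saline. The set holds 36 of the 54532 genes in the deposited expression table and was found by gene name: 13 genes of DNA replication, 20 of mitosis and 3 cyclins of the G1 phase. Wild-type C57BL/6 mice aged 8 to 10 weeks had been banded by transverse aortic constriction (TAC), a narrowing of the aorta. The mice alive at 4 weeks were randomised, 15 per group, and the hearts are labelled as 8 weeks of TAC. The encenicline group (EVP-6124, an agonist of the α7 nicotinic acetylcholine receptor) received 2 mg/kg/day and the donepezil group (an acetylcholinesterase inhibitor) 5 mg/kg/day in the drinking water. The control group received physiological saline. RNA-seq values are held for 5 libraries of each group, numbered 1 to 5. Every group was banded and none is an unoperated heart. The labels do not say that each library came from its own mouse, so p-values measure the spread between these libraries, which may be technical.

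Before a cell divides, the MCM helicase is loaded at replication origins with the help of Cdt1 and Cdc6, ribonucleotide reductase and thymidylate synthase supply the nucleotides, and the sliding clamp Pcna holds the polymerases on DNA. Cyclin-dependent kinases, Aurora kinases, Plk1 and kinesin motors then condense, attach and separate the chromosomes, and the anaphase-promoting complex with Cdc20 ends mitosis. Most cardiomyocytes of the adult heart have left the cell cycle, and dividing cells there are mostly of other types, such as endothelial cells, fibroblasts and immune cells. In bulk heart RNA, fewer cells of a type and less RNA per cell cannot be told apart.

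All values are FPKM, fragments scaled by gene length and library size, so that levels of different genes are compared per length. Recovered read totals ran from 14496147 to 17176086 per library, of which 17.4 to 27.0% were mitochondrially encoded. The library size implied by the FPKM differed from the recovered total. It was 0.925 to 1.03 times that total with encenicline, 0.939 to 1.15 with donepezil and 0.999 to 1.12 with saline. Cardiomyocyte markers, a check of the label heart, summed to 10468 to 17293 FPKM over the 15 libraries. The library donepezil 4 stood apart, with 25893 genes above 0 against 19489 to 20667 in the other 14, and with summed fibroblast markers of 924 FPKM and macrophage markers of 617 FPKM. The treatment field of 2 libraries, donepezil 1 and encenicline 1, names another group than their titles, and the grouping follows the titles.

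The promoters of the replication and mitosis members differed in the short sequence words they hold, and those of the members with the smallest p-values are shown for that reason. The windows run 5′ to 3′ from 250 bases before to 50 bases after the start annotated by RefSeq on GRCm38.p6. Capitals mark E2F words (TTTGGCGC, TTTCCCGC, TTTCGCGC or TTTGCCGC), the cell-cycle homology region or CHR (TTTGAA) and the CCAAT box, each searched on both strands with overlapping matches counted. E2F factors and the CHR are textbook elements of cell-cycle promoters.

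Mcm3 (chr1:20820263-20820562, minus strand): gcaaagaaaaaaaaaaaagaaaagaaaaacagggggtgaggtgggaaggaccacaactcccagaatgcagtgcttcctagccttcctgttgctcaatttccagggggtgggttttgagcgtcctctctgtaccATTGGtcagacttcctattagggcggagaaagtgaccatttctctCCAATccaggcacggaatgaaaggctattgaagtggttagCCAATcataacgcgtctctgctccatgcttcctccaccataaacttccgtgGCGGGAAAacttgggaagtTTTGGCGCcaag

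Cdt1 (chr8:122567765-122568064, plus strand): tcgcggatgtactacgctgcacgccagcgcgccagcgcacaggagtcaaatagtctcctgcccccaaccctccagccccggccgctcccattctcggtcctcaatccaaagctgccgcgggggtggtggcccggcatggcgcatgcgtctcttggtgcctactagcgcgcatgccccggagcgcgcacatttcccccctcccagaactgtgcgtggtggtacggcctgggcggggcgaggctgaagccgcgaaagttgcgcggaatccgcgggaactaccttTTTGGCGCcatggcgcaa

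Mki67 (chr7:135716330-135716629, minus strand): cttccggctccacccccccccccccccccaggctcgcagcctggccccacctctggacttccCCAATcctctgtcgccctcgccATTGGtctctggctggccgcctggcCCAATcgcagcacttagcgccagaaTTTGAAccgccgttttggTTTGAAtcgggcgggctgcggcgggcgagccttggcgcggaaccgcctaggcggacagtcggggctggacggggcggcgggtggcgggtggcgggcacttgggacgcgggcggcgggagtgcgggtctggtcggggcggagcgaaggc

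Plk1 (chr7:122159185-122159484, plus strand): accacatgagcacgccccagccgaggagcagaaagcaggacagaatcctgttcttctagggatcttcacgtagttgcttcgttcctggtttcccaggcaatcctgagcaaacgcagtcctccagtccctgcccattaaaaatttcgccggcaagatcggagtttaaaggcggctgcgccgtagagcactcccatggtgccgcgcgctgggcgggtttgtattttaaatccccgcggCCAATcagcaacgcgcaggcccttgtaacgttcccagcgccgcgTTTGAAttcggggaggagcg

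Top2a (chr11:99024140-99024439, minus strand): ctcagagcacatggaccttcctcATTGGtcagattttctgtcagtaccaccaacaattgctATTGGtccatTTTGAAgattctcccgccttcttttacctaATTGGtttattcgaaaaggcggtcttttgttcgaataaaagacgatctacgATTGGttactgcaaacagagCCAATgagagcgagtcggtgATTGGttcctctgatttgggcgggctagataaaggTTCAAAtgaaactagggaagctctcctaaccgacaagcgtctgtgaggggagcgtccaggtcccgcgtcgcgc

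Birc5 (chr11:117848987-117849286, plus strand): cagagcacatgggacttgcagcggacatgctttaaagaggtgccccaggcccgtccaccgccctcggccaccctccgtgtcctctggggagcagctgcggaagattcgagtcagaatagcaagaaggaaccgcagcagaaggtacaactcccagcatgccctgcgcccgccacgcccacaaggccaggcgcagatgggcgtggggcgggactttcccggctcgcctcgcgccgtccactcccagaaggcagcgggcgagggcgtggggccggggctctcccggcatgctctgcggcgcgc

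In the Mcm3 and Cdt1 windows the E2F words lie after the start, while the windows of Mki67, Plk1 and Top2a hold CHR and CCAAT words. The Birc5 window, printed because this gene passed once low genes were included, holds none of these letters. RefSeq windows were matched to 28 of the 36 members, and Mcm4, Gins2, Ccna2, Aurkb, Kif20a, Tpx2, Ccnd1 and Ccnd2 had no entry. Of the 28 windows, 23 ended inside a GENCODE transcript of the gene, and those of Mcm5, Mcm6, Aurka, Kif11 and Kif23 did not. The RefSeq starts of Mcm7 and Cdc6 lay 539 and 350 bases from the 5′ end of the gene in the expression table. An E2F word was found in 6 of 11 replication windows (54.5%), in 1 of 16 mitosis windows (6.25%) and in 2.26% of all 32851 windows of the same length. Each member had 1 window, that nearest the 5′ end of its gene, whereas the 32851 windows were not reduced to 1 per gene. The CHR was found in 1 of 11 replication windows (9.09%), in 13 of 16 mitosis windows (81.2%) and in 17.9% of all windows. The CCAAT box was found in 8 of 11 replication windows (72.7%), 14 of 16 mitosis windows (87.5%) and 37.4% of all windows. CHR and CCAAT stood together in 12 of 16 mitosis windows (75.0%), against 6.95% of all windows. A match describes the letters of a window and is not evidence of binding.

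**Figure D1:**
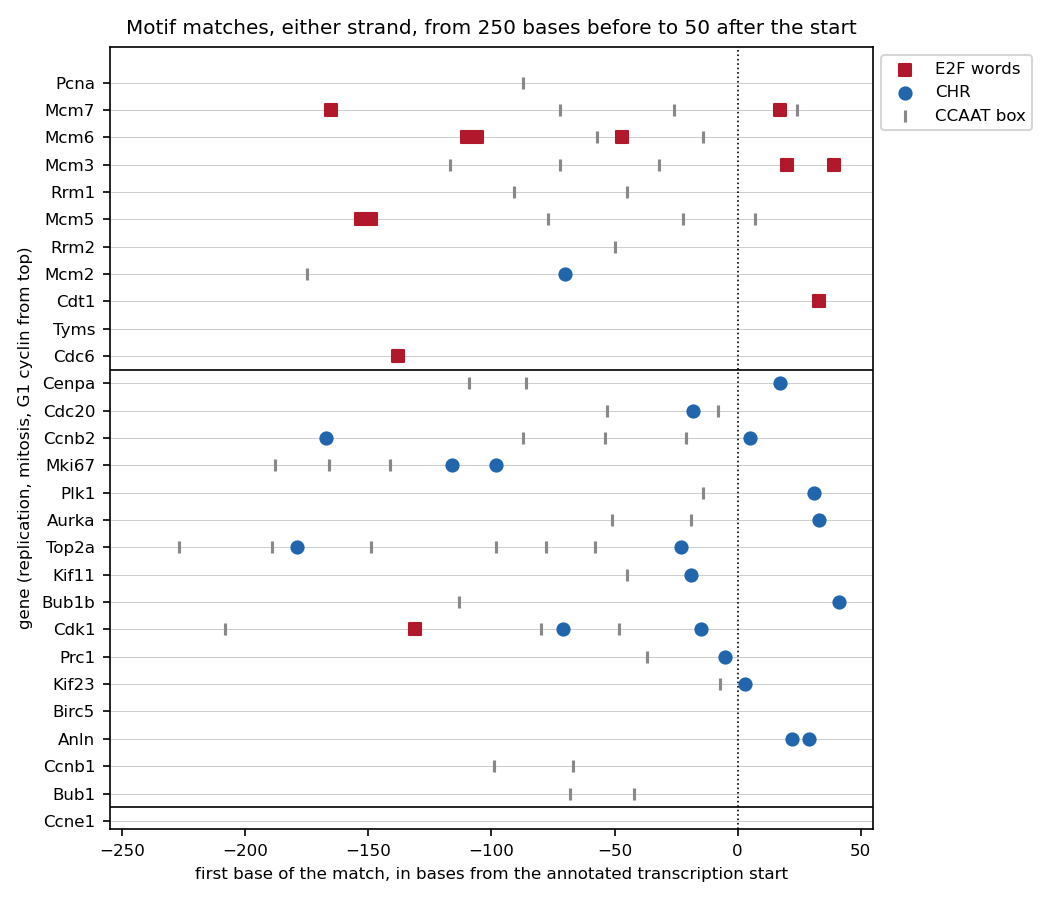
First base of each E2F, CHR or CCAAT match, in bases from the annotated start (dotted line), for the 28 members with a window (rows: replication, mitosis and G1 cyclin from the top). E2F words lie in 6 replication rows and 1 mitosis row, and CHR words in 13 of 16 mitosis rows.

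The transcripts were scarce in these libraries. The median over members of the mean level was 0.980 FPKM for replication and 0.523 FPKM for mitosis, against 3.97 FPKM for the 13396 genes tested. A gene was tested if it reached 0.5 FPKM in at least 5 of the 15 libraries, which 25 members did: 10 of 13 in replication, 13 of 20 in mitosis and 2 of 3 G1 cyclins. Tyms, Gins2 and Cdc6 of replication, Ccnb1, Aurkb, Bub1, Kif23, Birc5, Prc1 and Anln of mitosis, and Ccne1 fell below this limit. Cdk1 lay just inside with 5 libraries at or above 0.5 FPKM, and Aurkb with 4 and Prc1 with 3 lay just outside. Since the limit depends on the levels themselves, counts are also given over all 36 without it.

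Among replication genes, the clamp Pcna (chromosome 2, 132249162 to 132253314, minus strand) was the most abundant. It had 15.5, 14.7, 13.3, 15.5 and 12.6 FPKM with encenicline, 14.8, 15.1, 14.7, 12.6 and 16.3 FPKM with donepezil, and 14.4, 14.3, 13.4, 16 and 16.9 FPKM with saline, each list running over libraries 1 to 5. The 3 groups overlapped throughout. The MCM subunits lay well below Pcna.

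Mcm7 had 2.21, 2.1, 2.49, 2.29 and 2.59 FPKM with encenicline, 3.0, 2.48, 2.52, 3.54 and 2.33 FPKM with donepezil, and 2.24, 2.13, 2.28, 2.48 and 2.43 FPKM with saline. Its highest libraries were donepezil 4 and donepezil 1. Mcm6 had 2.33, 1.59, 2.28, 2.06 and 2.34 FPKM with encenicline, 2.61, 2.08, 2.62, 3.13 and 2.16 FPKM with donepezil, and 2.88, 2.47, 2.96, 2.99 and 1.85 FPKM with saline, with encenicline 2 and saline 5 lowest. Mcm4 had 2.58, 1.74, 2.19, 1.67 and 2.03 FPKM with encenicline, 2.36, 2.26, 2.43, 2.2 and 1.94 FPKM with donepezil, and 1.73, 2.52, 1.84, 2.38 and 1.7 FPKM with saline, and its groups overlapped. Mcm3 (chromosome 1, 20802968 to 20820312, minus strand) had 1.47, 1.46, 1.36, 1.7 and 1.37 FPKM with encenicline, 1.44, 1.47, 1.48, 1.8 and 1.25 FPKM with donepezil, and 1.62, 1.95, 2.13, 2.86 and 2.31 FPKM with saline. In Mcm3 the libraries saline 2 to 5 lay above all 10 treated libraries, and saline 1 lay within their range. Mcm2 (chromosome 6, 88883474 to 88898780, minus strand) had 0.901, 0.506, 0.849, 0.861 and 0.892 FPKM with encenicline, 0.891, 0.675, 0.92, 0.696 and 1.0 FPKM with donepezil, and 0.919, 1.39, 0.976, 1.17 and 0.929 FPKM with saline. All 5 encenicline libraries of Mcm2 lay below all 5 saline libraries, by a narrow margin in 4 of them, and encenicline 2 was far below the rest.

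Cdt1 (chromosome 8, 122568015 to 122573554, plus strand), the licensing factor that loads the helicase, had 0.641, 0.309, 0.659, 0.67 and 0.365 FPKM with encenicline, 0.596, 0.683, 0.798, 0.863 and 0.534 FPKM with donepezil, and 0.552, 1.06, 0.896, 1.03 and 0.819 FPKM with saline. Encenicline 2 and 5 were lowest, and saline 1 lay within the range of both drug groups. Rrm1, the large subunit of ribonucleotide reductase, had 1.44, 1.18, 1.41, 1.37 and 1.35 FPKM with encenicline, 1.29, 1.41, 1.58, 1.25 and 1.6 FPKM with donepezil, and 1.49, 1.31, 1.24, 1.56 and 1.4 FPKM with saline, with no group set apart. The regulatory subunit Rrm2 ranged over 0.462 to 1.22 FPKM with encenicline, 0.895 to 1.33 FPKM with donepezil and 0.475 to 1.12 FPKM with saline. Tyms, Cdc6 and Gins2 averaged 0.329, 0.157 and 0.149 FPKM over the 15 libraries.

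**Figure D2:**
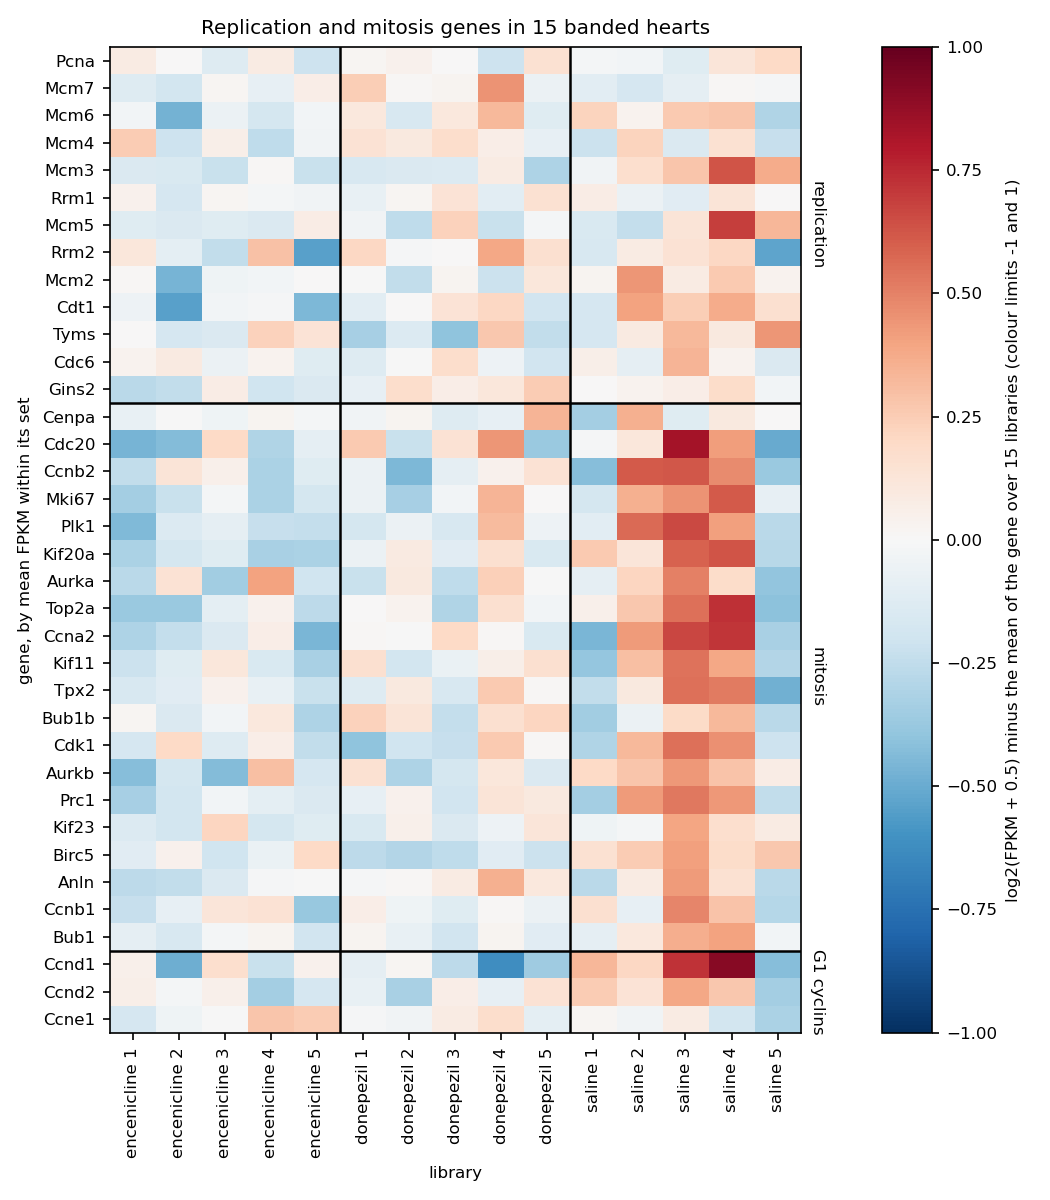
Level of each of the 36 members (rows) in each library (columns), as log2(FPKM + 0.5) minus the mean of the gene over 15 libraries. In the mitosis block the columns saline 2, 3 and 4 are the reddest, while saline 1 and 5 have mean values within the encenicline range. In the replication block the reddest cells are Mcm5 and Mcm3 in saline 4.

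The mitosis genes differed between the saline libraries themselves. For all 20 mitosis members the highest of the 15 libraries was a saline library: saline 3 for 13 of them, saline 4 for 6 and saline 2 for 1. This count rests on saline 2, 3 and 4 and does not stand for 20 separate results. The share of all genes highest in a saline library was not computed. The mitosis score, the mean over the 20 genes of log2(FPKM + 0.5) after centring each gene, was 0.24, 0.48 and 0.39 in saline 2, 3 and 4, but -0.14 and -0.21 in saline 1 and 5. It ran from -0.25 to -0.04 with encenicline and from -0.12 to 0.14 with donepezil, with donepezil 4 at the top. Saline 1 and 5 thus lay within the encenicline range and below all donepezil libraries.

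The spread of mitosis genes was wider with saline than with either drug. The median coefficient of variation of the 20 genes was 27.7% with encenicline, 23.4% with donepezil and 45.5% with saline. Over the 3768 genes tested with a mean of 0.5 to 2 FPKM it was 19.9% with encenicline, 22.6% with donepezil and 22.1% with saline. The mitosis genes match that set in level only in part, since 7 of the 20 fell below the limit for testing and Cenpa averaged 4.59 FPKM. For 18 of the 20 mitosis genes the SD of the log2 values was highest in saline, and for the other 2 in encenicline. That share was not computed over all genes. Replication members had 17.9% with encenicline, 17.2% with donepezil and 21.2% with saline. These spreads are descriptions without a test.

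Mki67 (chromosome 7, 135689784 to 135716361, minus strand), the classical marker of cycling cells, had 0.482, 0.561, 0.726, 0.494 and 0.596 FPKM with encenicline, 0.693, 0.487, 0.721, 1.07 and 0.744 FPKM with donepezil, and 0.60, 1.08, 1.19, 1.39 and 0.672 FPKM with saline. Saline 2, 3 and 4 and donepezil 4 exceeded 1 FPKM, and saline 1 and 5 did not. Top2a (chromosome 11, 98992943 to 99024189, minus strand), the topoisomerase that untangles sister chromosomes, had 0.306, 0.303, 0.473, 0.573 and 0.366 FPKM with encenicline, 0.544, 0.565, 0.344, 0.665 and 0.522 FPKM with donepezil, and 0.577, 0.753, 1.03, 1.23 and 0.285 FPKM with saline. Its lowest library of all was saline 5 and its highest saline 4. Kif20a (chromosome 18, 34624624 to 34633265, plus strand), a kinesin of cell cleavage, had 0.373, 0.464, 0.497, 0.369 and 0.373 FPKM with encenicline, 0.544, 0.654, 0.504, 0.714 and 0.476 FPKM with donepezil, and 0.803, 0.683, 1.13, 1.18 and 0.394 FPKM with saline. Encenicline had the narrowest range of Kif20a, and saline 5 fell inside it.

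Cenpa, the histone H3 variant of centromeres, and Cdc20, the activator of the anaphase-promoting complex, were the only mitosis members with a mean of at least 1 FPKM. Cenpa had 4.31, 4.54, 4.4, 4.64 and 4.49 FPKM with encenicline, 4.44, 4.66, 4.12, 4.27 and 5.9 FPKM with donepezil, and 3.5, 5.97, 4.14, 4.92 and 4.57 FPKM with saline. Cdc20 had 1.2, 1.23, 2.18, 1.4 and 1.7 FPKM with encenicline, 2.31, 1.51, 2.08, 2.68 and 1.31 FPKM with donepezil, and 1.82, 2.03, 3.66, 2.62 and 1.15 FPKM with saline. Cenpa was lowest in saline 1, and donepezil 5 lay close to its highest library, saline 2. Cdc20 was highest in saline 3 and lowest in saline 5.

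The genes Ccnd1 and Ccnd2, cyclins of the G1 phase, were among the best expressed members. Ccnd1 (chromosome 7, 144929931 to 144939925, minus strand) had 11.1, 7.5, 12.1, 9.1 and 11 FPKM with encenicline, 10.05, 10.9, 8.85, 6.79 and 8.26 FPKM with donepezil, and 13.6, 12.4, 18, 20.6 and 7.84 FPKM with saline. Saline 3 and 4 stood above all others, and saline 5 lay in the range of both drug groups. Ccnd2 had 9.27, 8.74, 9.2, 6.91 and 7.83 FPKM with encenicline, 8.41, 7.0, 9.33, 8.36 and 9.84 FPKM with donepezil, and 10.7, 9.83, 11.8, 10.8 and 6.91 FPKM with saline. Saline 5 was again low for Ccnd2, tied with encenicline 4 to the digits shown, and Ccne1 averaged 0.351 FPKM over all libraries.

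**Figure D3:**
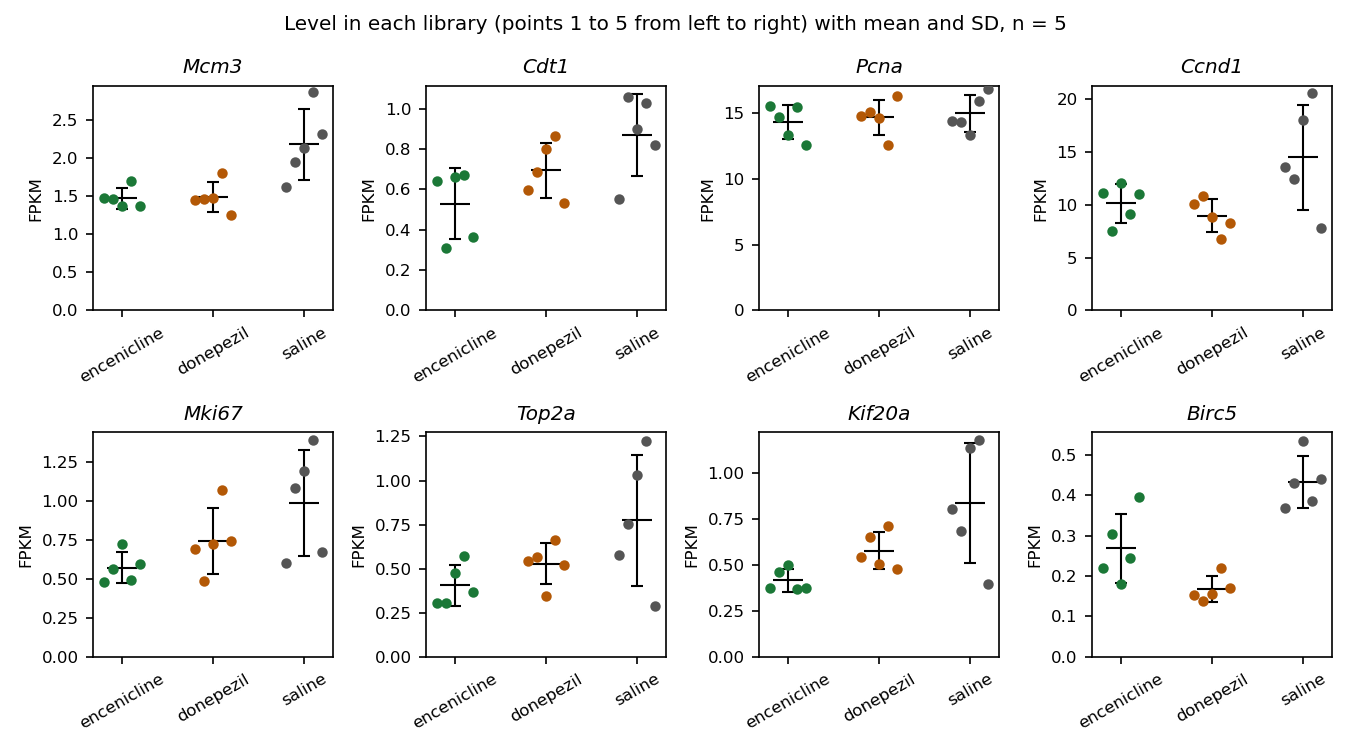
FPKM of 8 members in each library (points, libraries 1 to 5 from left to right in each group) with mean and SD (n = 5). Birc5 is the one panel in which all donepezil points lie below all saline points; in the other panels at least 1 saline library lies within the donepezil range.

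Encenicline was compared with saline to ask how activating the α7 receptor bears on these genes. Most members had lower means with encenicline, mitosis genes more than replication genes, but none passed the test. Mki67 averaged 0.572 ± 0.0982 FPKM with encenicline and 0.988 ± 0.341 FPKM with saline (SD, n = 5 each), and Top2a 0.404 ± 0.117 and 0.774 ± 0.37 FPKM. Mcm3 averaged 1.47 ± 0.137 FPKM with encenicline and 2.18 ± 0.461 FPKM with saline.

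Of the 25 members tested, 0 had an adjusted p under 0.05 (limma's moderated test on log2(FPKM + 0.5), Benjamini-Hochberg over 13396 genes), against 0.00% of all genes tested. Limma voom on the recovered reads also called 0 members. At an unadjusted p under 0.05, 7 members were lower and 0 higher, against 4.34% and 4.87% of all genes tested. The 7 were Mcm3, Kif20a, Cdt1, Mki67, Plk1, Top2a and Mcm2. The log2 fold change was -0.43 ± 0.11 (SE) for Mcm3, with a limma p of 0.00146 and an adjusted p of 0.428. Kif20a had -0.51 ± 0.15 (adjusted p = 0.476) and Cdt1 -0.42 ± 0.14 (adjusted p = 0.503). Plk1, the Polo-like kinase that drives entry into mitosis, ranged over 0.305 to 0.526 FPKM with encenicline and 0.408 to 1.23 FPKM with saline, a log2 fold change of -0.48 ± 0.17. Mki67 had -0.45 ± 0.16 (adjusted p = 0.503), Top2a -0.45 ± 0.18 (adjusted p = 0.514) and Mcm2 -0.28 ± 0.12 (adjusted p = 0.525).

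The median log2 fold change of encenicline against saline was -0.28 over the 13 mitosis members tested and -0.15 over the 10 replication members, against 0.004 over all genes tested. All 13 mitosis and 8 of 10 replication members were below 0, as were 48.8% of all genes. Without the limit on low values, 20 of 20 mitosis and 11 of 13 replication members were below 0, against 45.5% of 31527 genes, a further 4628 of which were at exactly 0. The mitosis median was -0.20 without saline 3, where Cdk1 no longer reached the limit on low values, and -0.43 without saline 1. The replication median was -0.07 without saline 4.

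Some members had fold changes near 0. Pcna had a log2 fold change of -0.06 ± 0.08, with a 95% interval from -0.24 to 0.12, and Cenpa of -0.02 ± 0.11, with an interval from -0.26 to 0.22. The D cyclins Ccnd1 (-0.44 ± 0.21, adjusted p = 0.537) and Ccnd2 (-0.23 ± 0.13, adjusted p = 0.602) did not pass the limma test. Mcm2 was the 1 tested member whose 5 encenicline libraries all lay below the 5 saline libraries, which 0.732% of all genes tested did.

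Donepezil was compared with saline as the treatment that raises acetylcholine itself. Mcm3 and Ccnd1 had the smallest p-values among tested members and both had lower means with donepezil, while Mcm7 had a higher mean. Mcm3 averaged 1.49 ± 0.195 FPKM with donepezil and 2.18 ± 0.461 FPKM with saline. Ccnd1 averaged 8.96 ± 1.58 FPKM with donepezil and 14.5 ± 4.98 FPKM with saline (SD, n = 5 each). Of 25 members tested, 0 passed at an adjusted p under 0.05 (limma, Benjamini-Hochberg), against 2.12% of all genes tested. Limma voom on the recovered reads of these members also called 0.

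At an unadjusted p under 0.05, 2 members were lower and 1 higher, against 7.63% and 8.51% of all genes tested. The log2 fold change of Mcm3 was -0.42 ± 0.11 (SE, adjusted p = 0.0632) and that of Ccnd1 -0.61 ± 0.21 (adjusted p = 0.15). Mcm3 passed without saline 1 (adjusted p = 0.0215) and without donepezil 4 (adjusted p = 0.0373), and Ccnd1 passed without saline 5 (-0.80, adjusted p = 0.0307). Mcm7 had 0.21 ± 0.09 (adjusted p = 0.28). The mitosis genes Mki67 (-0.24 ± 0.16), Top2a (-0.26 ± 0.18) and Kif20a (-0.28 ± 0.15) had adjusted p of 0.498, 0.531 and 0.395. Mcm2 had -0.24 ± 0.12, Cdt1 -0.19 ± 0.14, Ccnd2 -0.20 ± 0.13, Pcna -0.03 ± 0.08 and Cenpa 0.02 ± 0.11.

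The median log2 fold change of donepezil against saline was -0.19 over the mitosis members tested and -0.04 over the replication members, against -0.002 over all genes. Of these, 11 of 13 mitosis and 6 of 10 replication members were below 0, as were 50.4% of all genes. Without the limit on low values 17 of 20 and 8 of 13 were below 0, against 41.3% of 31527 genes, with a further 816 at exactly 0. The mitosis median was -0.04 without saline 3, -0.08 without saline 4 and -0.32 without saline 5. Without saline 3 or 4, Cdk1 no longer reached the limit on low values and was not part of the median. The replication median was -0.004 without saline 4 and -0.07 without saline 5.

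Birc5 (survivin; chromosome 11, 117849251 to 117855743, plus strand) was the 1 member that passed in any comparison once the limit on low values was dropped, and it is described for that reason, after its values were seen. Survivin belongs to the chromosomal passenger complex, with Aurkb, and also inhibits cell death. It had 0.219, 0.303, 0.179, 0.244 and 0.396 FPKM with encenicline, 0.152, 0.138, 0.155, 0.22 and 0.171 FPKM with donepezil, and 0.369, 0.43, 0.535, 0.386 and 0.44 FPKM with saline. All 5 donepezil libraries lay below all 5 saline libraries, which 0.847% of 31527 genes did, and the encenicline range met both. The values rest on 7 to 13 reads per donepezil library, 10 to 20 per encenicline library and 21 to 33 per saline library. The log2 fold change of donepezil against saline was -0.48 ± 0.08 on log2(FPKM + 0.5), with an adjusted p of 0.0296 over 31527 genes, where 0.377% passed. On the recovered reads, limma voom gave -1.39 and an adjusted p of 0.0248, where 0.701% passed. The call was lost in 11 of 25 alternatives, among them leaving out saline 2, 3 or 4 or donepezil 1, 2 or 3 singly (adjusted p = 0.0565 to 0.0841), leaving out donepezil 1 and encenicline 1 together (adjusted p = 0.113) and grouping by the treatment field (log2 fold change -0.37, adjusted p = 0.592). Its partner Aurkb averaged 0.308 ± 0.111 FPKM with donepezil and 0.507 ± 0.0918 FPKM with saline and did not pass.

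**Figure D4:**
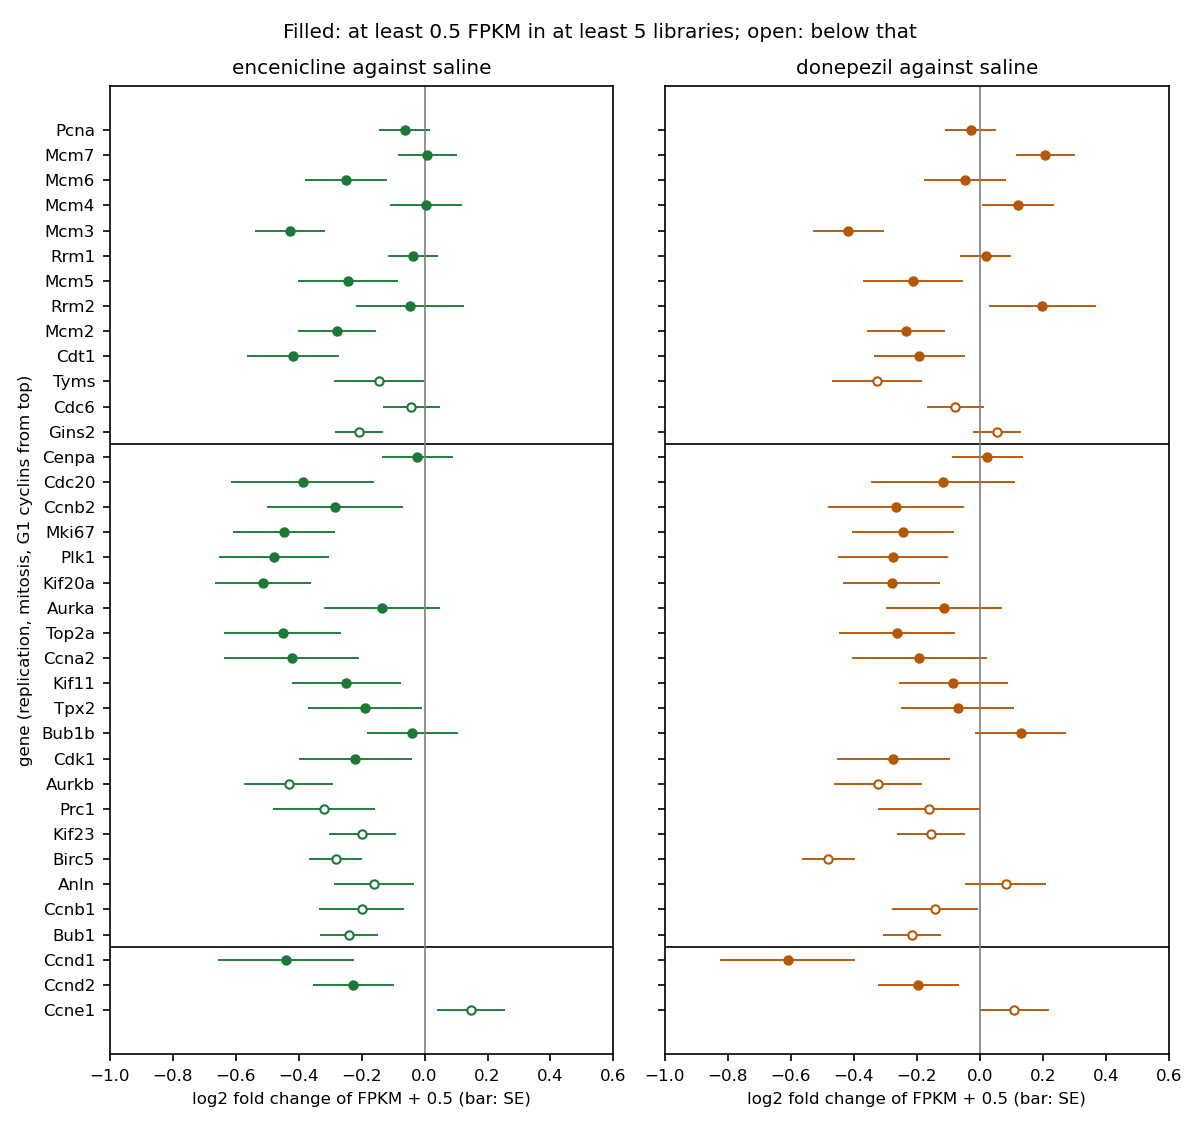
Log2 fold change of FPKM + 0.5 with SE (bars) for the 36 members, encenicline against saline on the left and donepezil against saline on the right; filled points reached 0.5 FPKM in at least 5 libraries. With encenicline all 20 mitosis points lie left of 0; with donepezil the Birc5 point at -0.48 stands out among mitosis genes.

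Encenicline was also set against donepezil directly, which tests the difference between the drugs. No member passed (0 of 25, limma with Benjamini-Hochberg), against 0.933% of all genes tested, and limma voom called 0. At an unadjusted p under 0.05, 1 member was lower, Mcm7, against 7.24% of all genes, and 0 were higher, against 7.76%. Mcm7 averaged 2.33 ± 0.202 FPKM with encenicline and 2.78 ± 0.497 FPKM with donepezil, a log2 fold change of -0.20 ± 0.09 (adjusted p = 0.331). Next by p came Cdt1 (-0.23 ± 0.14), Mcm6 (-0.20 ± 0.13) and Kif20a (-0.23 ± 0.15), with adjusted p of 0.474, 0.476 and 0.485. Mki67 had -0.20 ± 0.16 with a 95% interval from -0.54 to 0.13, and Top2a -0.19 ± 0.18 with an interval from -0.57 to 0.20, and both intervals include 0. The medians were -0.17 over mitosis and -0.09 over replication members, against 0.003 over all genes. Since both drugs were compared with the same saline libraries, the 2 comparisons with saline are not independent.

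Members were also followed across the 15 libraries regardless of group, in 3 relations. The log2 levels of Mki67 and Top2a were correlated with r = 0.790 (permutation test with 100000 resamples, two-sided, p = 0.00050, adjusted over 3 relations p = 0.0015) and rho = 0.60 (adjusted p = 0.0314). After subtracting group means r was 0.674. Without saline 4 and saline 3, the libraries farthest from the median of Mki67, r was 0.520 (adjusted p = 0.208), so the relation passed only with these libraries, and leaving them out also narrowed the range of Mki67. Mki67 and Mcm2 gave r = 0.527 (permutation p = 0.0423, adjusted p = 0.0634) and rho = 0.596 (adjusted p = 0.0314). With group means subtracted, r of Mki67 and Mcm2 was 0.270. Without saline 4 and saline 3 it was 0.420 (permutation test, adjusted p = 0.231), and rho was 0.412 (adjusted p = 0.294). Mki67 and Ccnd1 gave r = 0.484 (permutation p and adjusted p = 0.0647) and rho = 0.286 (adjusted p = 0.304). Their r was 0.325 with group means subtracted and -0.17 without the same libraries.

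**Figure D5:**
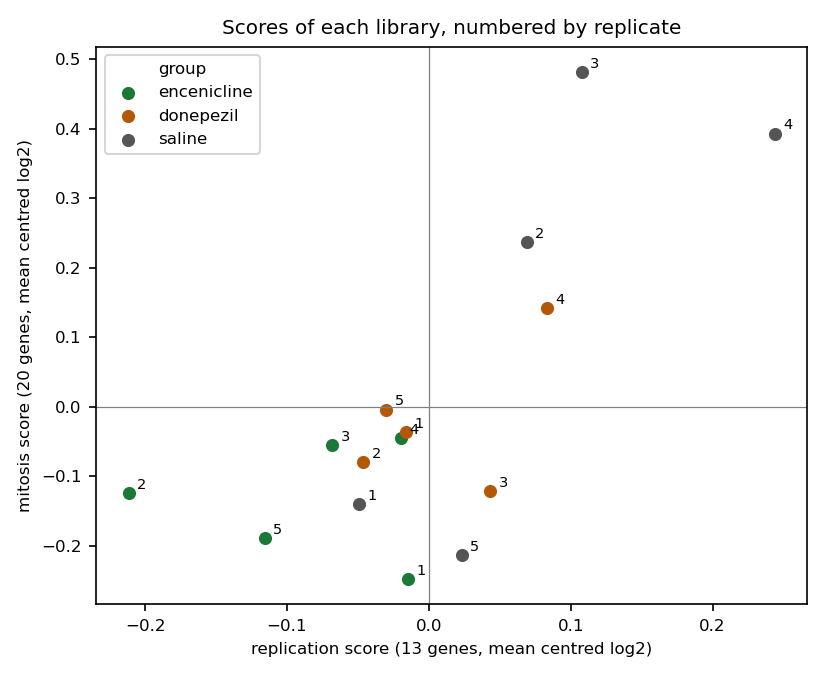
Mitosis score against replication score of each library (mean over genes of centred log2 levels; numbers are replicates). Saline 2, 3 and 4 lie highest on the mitosis axis at 0.24 to 0.48, and saline 1 and 5 lie below 0 with most treated libraries.

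Further genes of the same pathways did not pass either. Of 36 further replication genes 23 were tested, and of 38 further mitosis genes 12, and 0 of either passed in any of the 3 comparisons (limma, Benjamini-Hochberg), nor did any by voom over all 36 and 38. At an unadjusted p under 0.05, encenicline against saline had 3 lower and 1 higher among the 23, and 4 lower and 0 higher among the 12, against 4.34% lower and 4.87% higher of all genes tested. The smallest p-values belonged to Dnmt1 (-0.24 ± 0.06), the methyltransferase that copies methylation onto new DNA, and Rfc3 (-0.39 ± 0.11), a part of the clamp loader. Of mitosis they belonged to Nusap1 (-0.31 ± 0.10), a spindle protein, and Ube2c (-0.40 ± 0.15), an enzyme of the anaphase-promoting complex pathway. With donepezil, Dnmt1 (-0.23 ± 0.06, adjusted p = 0.076) and the condensin subunit Ncapd2 (-0.33 ± 0.09, adjusted p = 0.0812) came closest, and each passed in 1 of 27 alternatives, Dnmt1 without donepezil 4 (adjusted p = 0.0311) and Ncapd2 without saline 5 (adjusted p = 0.0352). The medians of the further mitosis genes tested were -0.19 for encenicline against saline and -0.11 for donepezil against saline, and those of the further replication genes -0.01 and 0.003.

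Among genes that regulate the cycle, Myc and Cdkn1a changed with donepezil. Myc, a transcription factor that drives cell growth, rose to 3.18 ± 0.79 FPKM with donepezil, against 1.4 ± 0.243 FPKM with saline (log2 fold change 0.94 ± 0.13, limma adjusted p = 0.00231). All 5 donepezil libraries of Myc, at 2.39 to 4.48 FPKM, lay above the saline range of 1.19 to 1.75 FPKM, and 2.11% of all genes tested were separated in this direction. Cdkn1a, which encodes the cell-cycle inhibitor p21, rose to 58 ± 27.7 FPKM with donepezil, against 17.7 ± 8.06 FPKM with saline (1.68 ± 0.40, adjusted p = 0.0405), a call lost in 13 of 27 alternatives, among them leaving out saline 2, 3 or 4, donepezil 1, 2 or 5, or encenicline 1 or 5 singly (adjusted p = 0.0502 to 0.109). Grouping by the treatment field ended both calls, with adjusted p of 0.392 for Myc and 0.572 for Cdkn1a. These were 1 of 16 regulators and 1 of 19 inhibitors tested, against 2.12% of all genes tested. Ccng2 (0.48 ± 0.12, adjusted p = 0.0572), Cdkn1b (0.27 ± 0.09, adjusted p = 0.159) and Ccnd3 (-0.22 ± 0.07, adjusted p = 0.108) did not pass. Ccng2 passed in 5 of 27 alternatives (lowest adjusted p = 0.0283, with the replicate block) and Cdkn1b in 1, without donepezil 5 (adjusted p = 0.0482). Encenicline against donepezil gave a lower Myc (-0.76 ± 0.13, adjusted p = 0.0109), lost without donepezil 1 and encenicline 1 (adjusted p = 0.0709), with TPM (adjusted p = 0.0694) and by the treatment field (adjusted p = 0.476), while Cdkn1a did not pass (-1.10 ± 0.40, adjusted p = 0.204). With encenicline 0 regulators and inhibitors passed against saline, and Ccnd3 had -0.19 ± 0.07.

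Markers of cell types also differed between the libraries. All 8 endothelial markers had log2 fold changes below 0 for each drug against saline, and their sum ran from 282 to 340 FPKM with encenicline, 242 to 316 FPKM with donepezil and 308 to 371 FPKM with saline. Emcn (-0.61 ± 0.09, adjusted p = 0.00407) and Kdr (-0.68 ± 0.17, adjusted p = 0.0465) passed as lower with donepezil by limma, Kdr in only 9 of 27 alternatives and not when any library but saline 1, donepezil 5 or encenicline 1 was left out, and neither by the treatment field (adjusted p = 0.444 and 0.324). Emcn was higher with encenicline than with donepezil (0.59 ± 0.09, adjusted p = 0.0061), a call lost with TPM (adjusted p = 0.0904), without donepezil 1 and encenicline 1 (adjusted p = 0.0548) and by the treatment field (adjusted p = 0.412). Macrophage markers summed to 277 to 412 FPKM with encenicline, 258 to 617 FPKM with donepezil and 314 to 508 FPKM with saline, and 9 of 10 were below 0 for each drug. Saline 3 and 4 had the highest macrophage sums of their group, 508 and 431 FPKM, and saline 2, also high in mitosis genes, had 329 FPKM. This was not particular to macrophages. Saline 3 also had the highest endothelial, fibroblast, lymphocyte, erythroid and neutrophil sums of the saline group, and its lowest cardiomyocyte sum, 10973 FPKM. The pericyte and smooth muscle sum was highest in saline 5. Fibroblast markers summed to 148 to 187 FPKM with encenicline, 169 to 924 FPKM with donepezil and 167 to 320 FPKM with saline. Of 8 fibroblast markers 7 were below 0 for encenicline against saline (median log2 fold change -0.48), 3 for donepezil against saline (0.10) and 8 for encenicline against donepezil (-0.48), and 0 had an unadjusted p under 0.05. Lymphocyte markers summed to 1.2 to 2.51 FPKM with encenicline, 1.46 to 4.45 FPKM with donepezil and 2.22 to 4.46 FPKM with saline, with Cd3e, Cd3g, Cd8a and Ms4a1 under 0.1 FPKM on average. Erythroid markers summed to 105 to 263 FPKM with encenicline, 164 to 481 FPKM with donepezil and 120 to 730 FPKM with saline, and all 5 tested were below 0 for encenicline against saline, with Slc4a1 under 0.1 FPKM on average. Pericyte and smooth muscle markers summed to 299 to 329 FPKM with encenicline, 252 to 327 FPKM with donepezil and 280 to 333 FPKM with saline. Of the 6 tested, 4 were below 0 for each drug against saline. Cardiomyocyte markers summed to 13367 to 17293 FPKM with encenicline, 10468 to 13836 FPKM with donepezil and 10973 to 16584 FPKM with saline. Of these 8 markers, 7 were above 0 for encenicline against saline (median log2 fold change 0.16). The count above 0 was 3 for donepezil against saline (-0.04) and 7 for encenicline against donepezil (0.20), and 0 passed by limma. Neutrophil markers summed to at most 18.2 FPKM, and Elane was at 0 in every library. The part of these markers in the values of the mitosis genes was not tested.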

How the data were processed

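RNA-seq of 15 heart libraries was deposited by the authors as a table of FPKM per gene. HISAT, featureCounts 1.5.0-p3, DESeq 1.8.3 and the build GRCm38 are named in the submitters' processing notes, with neither role nor order. FPKM times gene length, divided by the value of 1 read in each library, gave whole reads to within 0.05 in 100% of values, and these recovered reads served an alternative. No sample column was left unmapped (0). Levels were analysed as log2(FPKM + 0.5), so folds of low genes are understated. The 13396 genes that reached 0.5 FPKM in 5 or more libraries entered 1 limma 3.58.1 fit (R 4.3.3) over the 15 libraries, with a trend in the prior variance, no covariate, and two-sided p-values, corrected within each comparison by the Benjamini-Hochberg method. The script was tested on simulated data. The median SE of a log2 fold change was 0.11.

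The members and lists were chosen with earlier results of these data known, so no list was given a p. Values per library are given for members with a mean of at least 1 FPKM, for Mki67, Top2a and the 4 members with the smallest p of each comparison. From each other list every called gene and up to 4 genes by smallest p were named. Plk1, Birc5 and some further members were named after their values were seen. No batch or date is given. The alternatives changed the pseudocount (0.1, 1), the filter (none, 2 FPKM) and the scaling (3 other scalings), or used only the 10 libraries compared, a replicate block, limma voom on recovered reads, the label alternatives and each library left out in turn. The filter was applied again in each alternative that had one, so the genes tested could differ. The deposited FPKM values carry no counts of their own, and intervals are those of the limma fit.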

Additional observations from a re-analysis of the deposited data

Results flagged for a closer look

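In 5 of 108 sets of 5 libraries examined for members, 1 library lay farther from the nearest other than Dixon's test allows at 95% (a gap above 0.71 of the range). Chance alone flags about 5% of such sets. Mcm2 in encenicline 2 was 0.506 FPKM, with the other encenicline libraries at 0.849 to 0.901 FPKM. Mcm5, another helicase subunit, in encenicline 5 was 1.03 FPKM, with the others at 0.814 to 0.840 FPKM. Kif23, a kinesin of cell cleavage, in encenicline 3 was 0.454 FPKM, with the others at 0.223 to 0.256 FPKM. Plk1 in donepezil 4 was 0.865 FPKM, with the other donepezil libraries at 0.470 to 0.557 FPKM. Bub1b, a kinase of the spindle checkpoint, in donepezil 3 was 0.339 FPKM, with the others at 0.580 to 0.664 FPKM.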

How the results depend on the processing

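In encenicline against saline and in encenicline against donepezil, 0 members passed under any of the 28 alternatives. In donepezil against saline 1 member passed with no filter (Birc5), with the replicate block (Mcm3, adjusted p = 0.0399, while Kdr was lost at 0.0565) and with voom without a filter (Birc5, an alternative added after seeing the data), and 0 to 1 when each library was left out. The replicate numbers were not taken to pair the libraries, since 4 of 15 same-numbered pairs correlated above 0.1 (range -0.087 to 0.195) and 4 libraries correlated best with their own number. The median of replication members in encenicline against saline, -0.15, was -0.29 with TPM and -0.30 with voom. With a filter at 2 FPKM it was -0.029, but over fewer genes. That filter left only Pcna, Mcm7, Mcm6 and Mcm4 of replication and Cenpa and Cdc20 of mitosis, so its medians describe other sets of genes. The median of all genes in that comparison moved to -0.13 with TPM and -0.10 with voom, and that of mitosis members to -0.45 and -0.51. TPM and voom do not use the library size implied by the FPKM, and its part in these shifts was not tested. The mitosis medians kept their sign in all 27 alternatives of each comparison, with ranges of -0.32 to -0.04 for donepezil against saline, -0.51 to -0.20 for encenicline against saline and -0.38 to -0.07 for encenicline against donepezil. The replication median of donepezil against saline lay between -0.11 and 0.05.

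The relation of Mki67 to Top2a weakened to r = 0.520 without saline 4 and 3, and that of Mki67 to Ccnd1 reversed to -0.17. With TPM the relation of Mki67 to Mcm2 reached 0.708 and that to Ccnd1 0.625. Near 0, Cenpa in donepezil against saline was -0.048 with TPM and -0.026 with voom, and -0.061 to 0.11 with each library left out. Cenpa in encenicline against saline was -0.11 to 0.066 and Pcna in donepezil against saline -0.067 to 0.024 with each library left out. The causes were not tested.

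Of all genes, 284 passed in donepezil against saline, against 160 with TPM, 119 with no filter, 71 with the 10 libraries alone, 87 without donepezil 1 and encenicline 1, 0 by the treatment field and 105 to 408 with each library left out. Encenicline against donepezil gave 125, against 53 with TPM, 46 with no filter, 132 with the 10 libraries alone, 27 without donepezil 1 and encenicline 1, 0 by the treatment field and 48 to 178 with each library left out. Calls in donepezil against saline were 158 higher and 126 lower, against 55 and 105 with TPM, 95 and 114 without mitochondrial genes and 106 and 172 with voom. Encenicline against saline gave 0 (1 without donepezil 4), with 653 higher and 582 lower at an unadjusted p under 0.05. Depth limits the precision of the lowest members, with 2 to 22 reads per library for Bub1, and its effect on the calls was not tested.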
